A study of Homo sapiens with 6 samples.

Results

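The genes described here are 10 members of the S100 family of small calcium-binding proteins: S100P, S100A2, S100A3, S100A4, S100A6, S100A8, S100A9, S100A10, S100A11 and S100A13. They were chosen by their symbols with group differences on these arrays already known, and each is represented by the probe set that read highest on average across the 6 arrays. The 10 genes had 12 probe sets, out of 17 measured S100 genes with 19 probe sets and 11963 measured genes in all. Because their differences helped to choose them, the values of these genes are given as a description without p-values, and counts past a threshold stand beside the share over all probe sets. The cells were A549, a long-established line from a human lung adenocarcinoma that the labels call alveolar basal epithelial, and they were profiled on 6 Affymetrix arrays, 2 for each of 3 groups. Cells of the PIAS3 group were transfected with the plasmid pCMV5 carrying human PIAS3, whose protein attaches SUMO and restrains STAT3. Cells of the STAT3 siRNA group were transfected with an siRNA against that transcription factor, and cells of the control group were stimulated with EGF and not transfected. The design text gives serum-free medium and EGF for all 3 groups, whereas only the control's sample titles mention EGF. Before that the cells had spent 12 h in 10% FBS, and the transfected groups were harvested at 48 h. No harvest time is recorded here for the control. No array of cells given an empty plasmid or a non-targeting siRNA was analysed here. The effects of transfection itself, of any difference in harvest time and of the agent therefore cannot be told apart. Whether the arrays within a group represent separate cultures is not stated in the labels, so errors and p-values measure only the spread between arrays, possibly technical. In these bulk samples, fewer cells that express a gene and less RNA per cell cannot be told apart.

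S100 proteins are small EF-hand proteins that mostly form dimers. On binding calcium they expose a surface that docks target proteins inside the cell, such as annexins, myosin and ezrin. Several are also released and act on cell surface receptors, chiefly RAGE (encoded by AGER) and TLR4. Most human S100 genes lie in a cluster on chromosome 1 inside the epidermal differentiation complex, and S100P lies apart on chromosome 4.

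The stretches before the RefSeq start sites of S100P, S100A2 and S100A3 are shown because these 3 genes differed most between the groups. All 10 genes matched the RefSeq promoter table (GRCh38.p14), with 15 windows of 300 bases. Each line below gives the 250 bases before the start, 5′ to 3′, for S100A2 the more upstream of its starts. Capitals mark matches to a STAT motif, TTCNNNGAA, or to an AP-1 motif, TGANTCA, each searched on both strands.
S100P (chr4:6693628-6693877, plus strand): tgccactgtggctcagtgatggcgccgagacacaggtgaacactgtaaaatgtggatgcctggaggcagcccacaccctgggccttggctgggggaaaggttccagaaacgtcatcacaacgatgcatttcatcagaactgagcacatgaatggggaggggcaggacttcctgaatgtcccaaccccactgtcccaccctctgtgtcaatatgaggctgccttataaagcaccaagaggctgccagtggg
S100A2 (chr1:153565845-153566094, minus strand): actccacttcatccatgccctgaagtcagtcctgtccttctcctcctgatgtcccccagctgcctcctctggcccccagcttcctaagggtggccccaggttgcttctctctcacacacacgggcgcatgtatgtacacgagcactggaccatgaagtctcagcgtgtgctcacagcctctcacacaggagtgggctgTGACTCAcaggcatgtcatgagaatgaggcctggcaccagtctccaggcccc
S100A3 (chr1:153549259-153549508, minus strand): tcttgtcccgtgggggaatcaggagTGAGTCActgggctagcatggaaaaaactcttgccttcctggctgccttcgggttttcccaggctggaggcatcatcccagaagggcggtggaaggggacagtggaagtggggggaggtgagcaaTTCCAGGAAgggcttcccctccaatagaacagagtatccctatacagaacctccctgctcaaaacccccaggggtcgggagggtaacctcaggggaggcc

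The S100A3 stretch held a STAT match that began 100 bases before the start and an AP-1 match that began 225 bases before it. The S100A2 stretch held an AP-1 match that began 52 bases before the start, while the window of the other S100A2 start held neither string. In the S100P stretch neither string was found. Among the 15 windows, 1 held the STAT string and 2 held the AP-1 string. Over all 35116 windows of this length, 7.66% held the STAT string and 7.71% the AP-1 string. The matches did not overlap each other, and they describe letters and not binding.

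The arrays themselves were examined first. Array controls aside, 22215 probe sets were measured, with medians per array of 6.63 to 6.72 on the log2 scale. For STAT3 the controls read 10.50 and 10.43, the siRNA arrays 10.23 and 9.94 and the PIAS3 arrays 10.18 and 9.70, and neither difference passed in the limma fit (adjusted p of 0.9998 and 0.254). For PIAS3 the controls read 7.70 and 7.71 and the arrays labelled PIAS3 7.78 and 7.72. The sources used here do not place its probes inside or outside the plasmid's insert, so this level checks nothing. Interferon-stimulated genes and the poly-A spike-ins stood apart in PIAS3 replicate 1, exceeding the control mean by a median of 3.67 (24 genes) and of 1.41. In PIAS3 replicate 2 these medians were 0.00 and -0.13. STAT3 siRNA replicate 2 was closer to PIAS3 replicate 2 than to STAT3 siRNA replicate 1, with SDs of the difference over probe sets of 0.19 and 0.25. Epithelial keratin and adhesion markers, 6 of 6 measured, read above the probe sets for a bacterial transcript that should be absent (3.26 to 3.93) on all arrays. The same held for all 6 measured alveolar type II markers and all 7 markers of the A549 line. It also held for 6 of 6 measured squamous keratinocyte, 7 of 8 fibroblast, 5 of 6 endothelial and 6 of 8 leukocyte markers. This cut therefore does not tell cell types apart.

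S100P was high in both PIAS3 arrays and in STAT3 siRNA replicate 2. This protein was first isolated from placenta, binds ezrin inside cells and RAGE outside them, and is known from many adenocarcinomas. The controls read 6.94 and 6.83, the STAT3 siRNA arrays 6.89 and 9.14, and the PIAS3 arrays 10.90 and 9.57. The siRNA group was therefore split, with replicate 1 between the control values and replicate 2 near the lower PIAS3 value. The log2 difference from control was 3.35 ± 0.70 (SE of the fit, n = 2 per group) with PIAS3, a ratio of 10.2. It lay above those of 99.98% of all probe sets. The corresponding difference with the STAT3 siRNA was 1.13 ± 0.70, and between PIAS3 and STAT3 siRNA it was 2.22 ± 0.70. Without STAT3 siRNA replicate 2 the siRNA difference was 0.00, and without STAT3 siRNA replicate 1 it was 2.26. The same omissions moved the difference between PIAS3 and STAT3 siRNA to 3.35 and 1.09. The difference with PIAS3 was 2.68 without PIAS3 replicate 1 and 4.02 without PIAS3 replicate 2. In STAT3 siRNA replicate 2, where S100P was also high, the interferon median was 0.02 above the control mean and the spike-in median -0.23. Among the cell type markers, KRT19 (-1.91 ± 0.38), CDH1 (1.09 ± 0.16) and the A549 marker GPX2 (1.82 ± 0.35) were among the 2 genes with the smallest p of their lists with PIAS3 (limma adjusted p of 0.104, 0.0762 and 0.0973). All 7 A549 markers lay above control (median 0.30), while the 6 epithelial and 6 alveolar markers had medians of -0.07 and -0.11. The actin control probe sets at the 3′ end, compared with those at the 5′ end as a sign of RNA quality, read higher by 0.12 and 0.10 in the controls, 0.16 and 0.23 with the STAT3 siRNA, and 0.43 and 0.28 with PIAS3. The 3 arrays with high S100P thus had the 3 largest actin values. For GAPDH the same quantity was 0.36 and 0.29 in the controls, 0.29 and 0.40 with the STAT3 siRNA, and 0.40 and 0.37 with PIAS3. The same 3 arrays had the 3 largest GAPDH values too, by a narrow margin (0.37 against 0.36). The part of these markers and of RNA quality in the S100P result was not tested.

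S100A2 was lowest on the 3 arrays where S100P was high. It encodes a mostly nuclear S100 protein of squamous and basal epithelia that binds p53 family members. The controls read 8.59 and 8.71, the STAT3 siRNA arrays 8.25 and 7.60, and the PIAS3 arrays 6.96 and 7.47. All 4 transfected arrays were below both controls, including STAT3 siRNA replicate 1, which had a control level of S100P. The log2 difference from control was -1.43 ± 0.24 with PIAS3 (a ratio of 2.70) and -0.72 ± 0.24 with the STAT3 siRNA. PIAS3 and STAT3 siRNA differed by -0.71 ± 0.24, and their arrays did not overlap. The siRNA difference was -0.40 without STAT3 siRNA replicate 2 and -1.05 without replicate 1. The same omissions gave -1.04 and -0.39 between PIAS3 and STAT3 siRNA, and without PIAS3 replicate 1 that value was -0.46.

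S100A3, best known from the hair cuticle and with a high affinity for zinc, lies next to S100A2 on chromosome 1 and was lower in the same arrays. Its values were 8.77 and 8.73 in the controls, 8.41 and 8.31 with the STAT3 siRNA, and 7.79 and 8.23 with PIAS3. The groups did not overlap in any of the 3 comparisons. The log2 difference from control was -0.74 ± 0.16 with PIAS3 and -0.39 ± 0.16 with the STAT3 siRNA, and PIAS3 lay at -0.35 ± 0.16 from STAT3 siRNA. PIAS3 replicate 1 was the lowest array, and without it the PIAS3 difference was -0.52 from control and -0.13 from STAT3 siRNA.

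**Figure D1:**
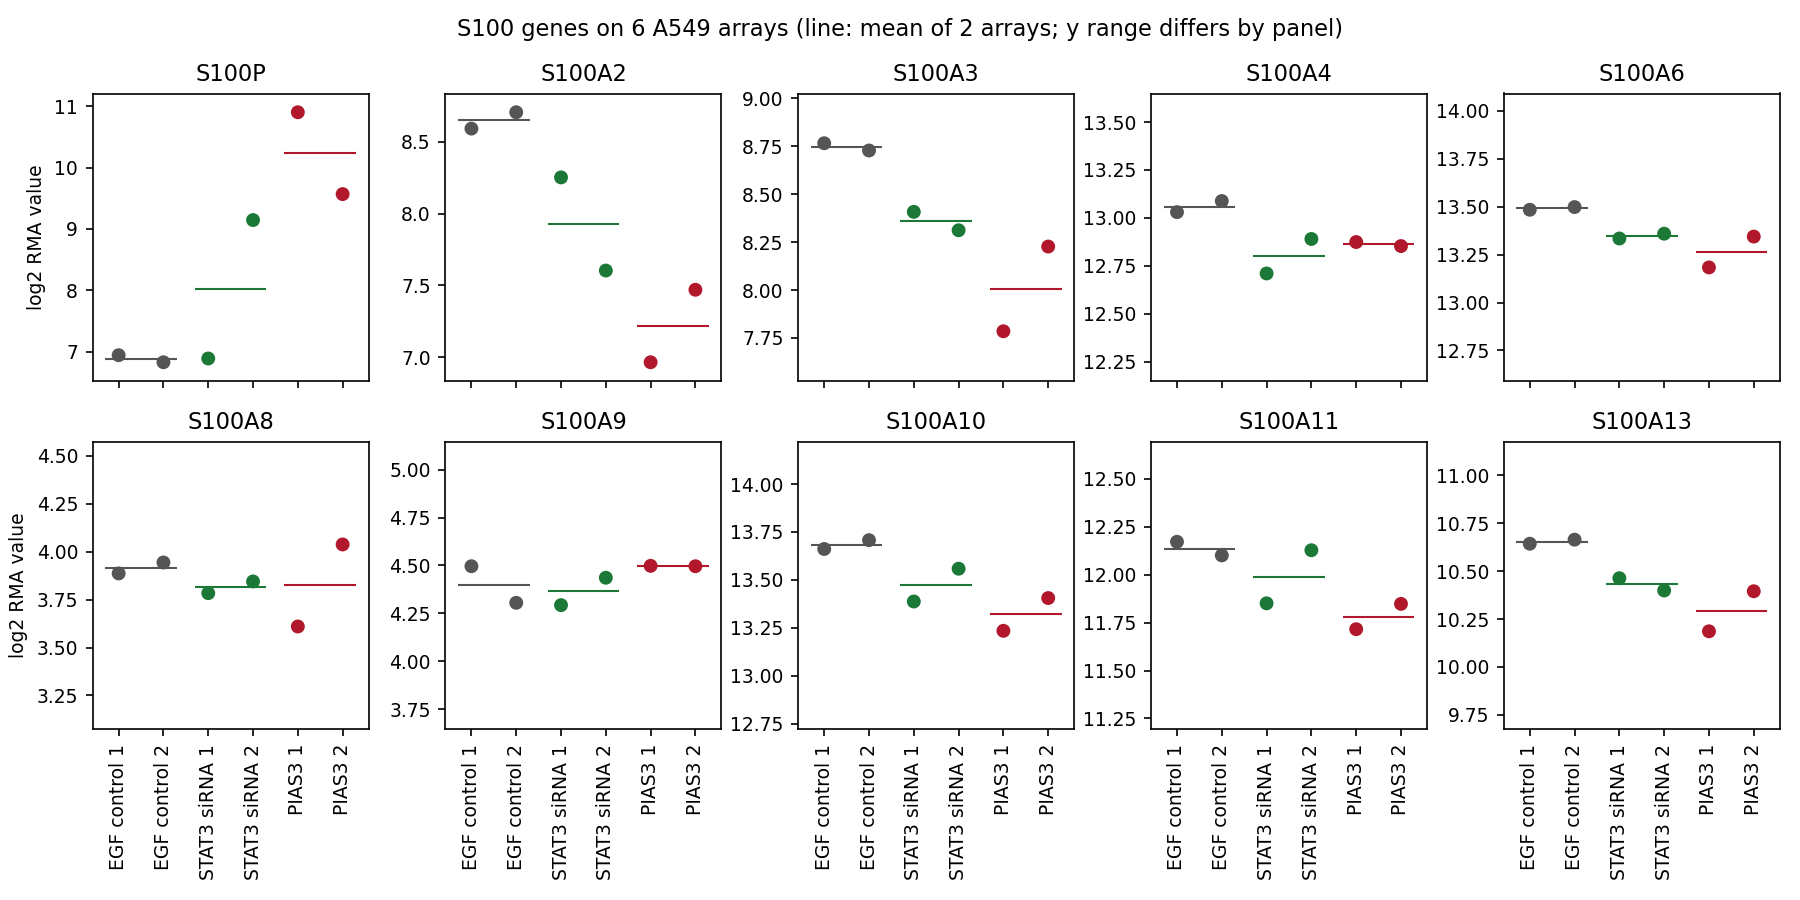
Log2 RMA value (y axis, range set per panel) of each S100 gene on each of the 6 arrays (x axis), with grey EGF control, green STAT3 siRNA and red PIAS3 points and a line at the mean of each group. S100P reads 9.14 to 10.90 on 3 arrays and 6.83 to 6.94 on the others, while S100A2 reads 6.96 to 7.60 on the same 3 arrays and 8.25 to 8.71 on the others.

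S100A10 and S100A11, which bridge annexins to membranes and the cytoskeleton, were slightly lower. S100A10 (p11) has lost calcium binding and forms a heterotetramer with annexin A2 that binds plasminogen at the cell surface. It read 13.66 and 13.71 in the controls, 13.39 and 13.56 with the STAT3 siRNA, and 13.23 and 13.41 with PIAS3. Both transfected groups lay below the controls, by -0.36 ± 0.12 with PIAS3 and -0.21 ± 0.12 with the STAT3 siRNA. Its partner gene ANXA2 stood at -0.17 ± 0.10 and -0.08 ± 0.10 (adjusted p of 0.523 and 0.9998). S100A11, a partner of annexin A1 in epithelial growth control, read 12.17 and 12.10 in the controls, 11.85 and 12.13 with the STAT3 siRNA, and 11.72 and 11.85 with PIAS3. The PIAS3 arrays lay below both controls (-0.35 ± 0.13), whereas STAT3 siRNA replicate 2 lay between them and the group difference was -0.15 ± 0.13. Without STAT3 siRNA replicate 1 that difference was -0.01. ANXA1 stood at 0.06 ± 0.10 from control in both comparisons (adjusted p of 0.881 and 0.9998).

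S100A4 and S100A6 bind cytoskeletal and ubiquitin ligase proteins. S100A4, a regulator of non-muscle myosin IIA known for its part in metastasis, read 13.03 and 13.09 in the controls, 12.71 and 12.89 with the STAT3 siRNA, and 12.87 and 12.85 with PIAS3. All transfected arrays were below both controls, by -0.26 ± 0.11 with the STAT3 siRNA and -0.20 ± 0.11 with PIAS3. The transfected groups overlapped each other, with a difference of 0.06 ± 0.11. S100A6 (calcyclin), whose partner CACYBP bridges it to ubiquitin ligases, read 13.48 and 13.50 in the controls, 13.33 and 13.36 with the STAT3 siRNA, and 13.18 and 13.34 with PIAS3. The differences from control were -0.23 ± 0.11 with PIAS3 and -0.14 ± 0.11 with the STAT3 siRNA, and again no transfected array reached a control. Under cyclic loess the difference between PIAS3 and STAT3 siRNA changed from -0.08 to 0.01, so that direction depends on the scaling.

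S100A13 takes part in the release of FGF1 and interleukin-1 alpha, which leave cells without a signal peptide. It read 10.64 and 10.66 in the controls, 10.46 and 10.40 with the STAT3 siRNA, and 10.19 and 10.40 with PIAS3. By this probe set both transfected groups lay below the controls, by -0.36 ± 0.11 with PIAS3 and -0.22 ± 0.11 with the STAT3 siRNA. Its dimmer probe set pointed the other way, at 5.95 and 6.04 in the controls, 6.51 and 6.27 with the STAT3 siRNA, and 5.84 and 6.43 with PIAS3. There the siRNA arrays were above both controls (0.39 ± 0.20) and the PIAS3 arrays lay on both sides of them (0.14 ± 0.20). The mean of both probe sets gave -0.11 with PIAS3 and 0.09 with the siRNA. The direction against control therefore depends on the probe set, with PIAS3 as with the siRNA. By RefSeq annotation the gene S100A13 overlaps S100A1 and CHTOP, and S100A4 overlaps S100A5.

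S100A8 and S100A9 form calprotectin, an abundant protein of neutrophils and monocytes that is also induced in stressed epithelia. S100A8 read 3.89 and 3.94 in the controls, 3.78 and 3.84 with the STAT3 siRNA, and 3.61 and 4.04 with PIAS3. Its other probe set read 2.99 to 3.24 over the 6 arrays. Only PIAS3 replicate 2, by the brighter probe set, and control replicate 2 exceeded the highest absent-transcript control. S100A9 read 4.50 and 4.31 in the controls, 4.29 and 4.44 with the STAT3 siRNA, and 4.50 and 4.50 with PIAS3. The differences from control were -0.09 ± 0.15 and -0.10 ± 0.15 for S100A8 and 0.10 ± 0.12 and -0.04 ± 0.12 for S100A9, with PIAS3 and STAT3 siRNA respectively. At levels this close to the absent-transcript controls a difference may not be measurable. Of 8 measured leukocyte markers, 6 read above those controls on all arrays. LYZ stayed at their level throughout, and PTPRC read 3.85 to 3.95. The summed log2 level of the leukocyte markers was 8.50 to 8.52 in the controls, 8.41 to 8.64 with the STAT3 siRNA and 8.67 to 8.86 with PIAS3. CD14 was the leukocyte marker with the smallest p with PIAS3, at 0.84 ± 0.13 above control (limma adjusted p = 0.0793). The median of the 8 was 0.06 with PIAS3. Both PIAS3 arrays lay above both controls for 2 of them and below both for 2, beside 45.4% of all probe sets apart in either direction.

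**Figure D2:**
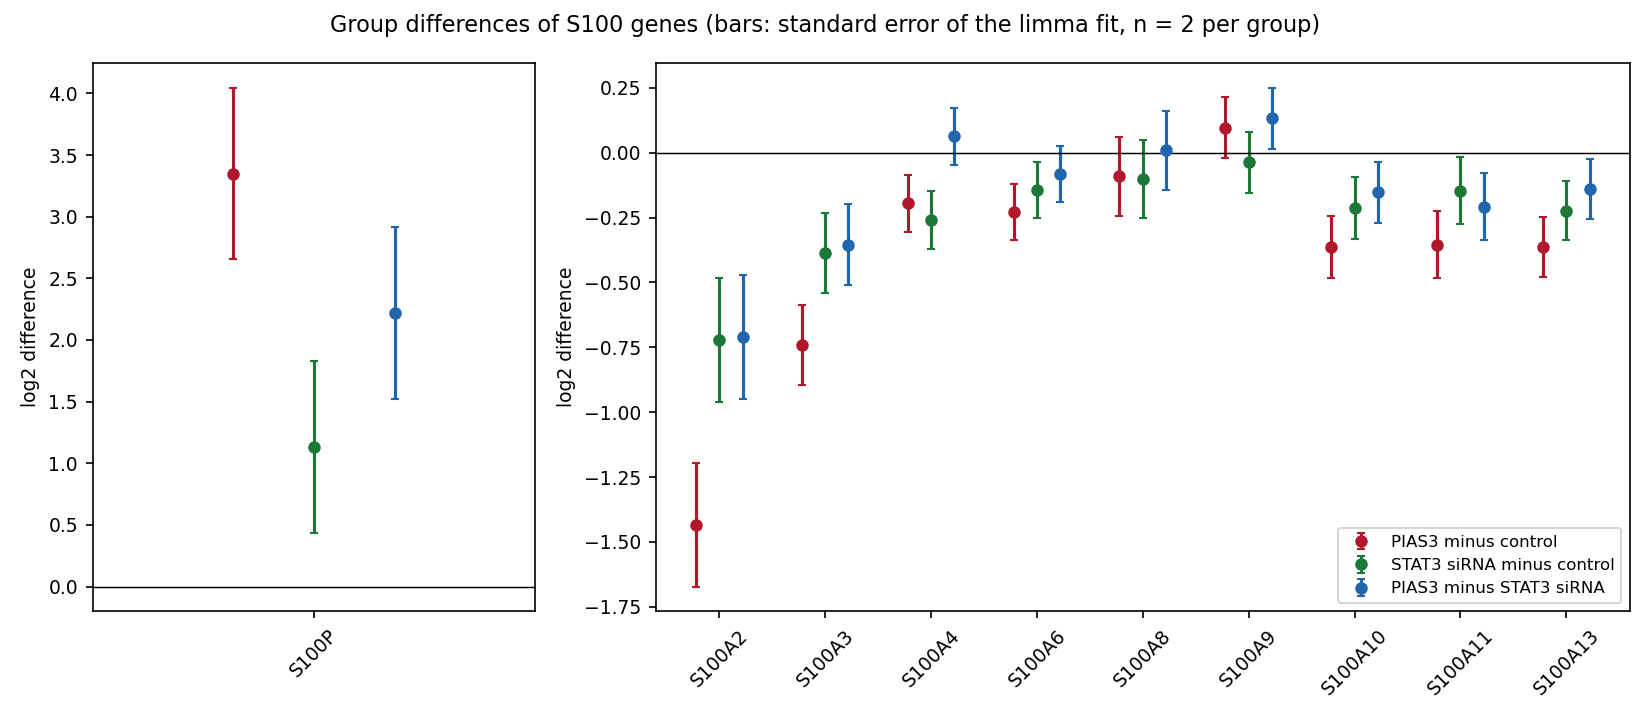
Log2 difference between groups (y axis) for S100P (left) and the 9 other S100 genes (right, on a narrower scale) in 3 comparisons, with bars for the standard error of the fit on 2 arrays per group. S100P lies at 3.35 for PIAS3 minus control, and S100A2 (-1.43) and S100A3 (-0.74) lie furthest below 0.

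Counted together, 8 of the 10 genes lay below control with PIAS3 and 9 of 10 with the STAT3 siRNA, where 52.1% and 51.1% of all probe sets did. In all these counts S100A13 enters by its brighter probe set, and its dimmer one pointed the other way. The median log2 difference of the 10 was -0.29 with PIAS3 and -0.18 with the siRNA, against -0.01 and -0.00 over all probe sets. In the comparison of PIAS3 with STAT3 siRNA the median was -0.11, against -0.01 over all probe sets, with 6 of 10 below 0. Both PIAS3 arrays lay below both controls for 7 of the 10 genes, beside 24.4% of all probe sets. The siRNA arrays did so for 7 as well, beside 19.1%. In either direction the arrays did not overlap for 9 of 10 genes with PIAS3 (45.4% of all probe sets), for 7 with the STAT3 siRNA (37.5%) and for 6 between PIAS3 and STAT3 siRNA (35%). For S100A9 that separation was of 4.50 from 4.50. The comparisons against control share the same 2 control arrays, so they do not support each other.

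In limma with Benjamini-Hochberg adjustment over all probe sets, 0 of the 10 genes passed an adjusted p of 0.05 in any comparison. Of all probe sets, 0.099% passed with PIAS3, 0.0045% with the STAT3 siRNA and 0% between PIAS3 and STAT3 siRNA. At an unadjusted p under 0.05 there were 6 of 10 genes with PIAS3 (S100P higher and S100A2, S100A3, S100A10, S100A11 and S100A13 lower), beside 13.9% of all probe sets. With the STAT3 siRNA there were 2 (S100A2 and S100A3, both lower), beside 4.85%. Between PIAS3 and STAT3 siRNA there were 2 (S100P higher, S100A2 lower), beside 8.1%. With the PIAS3 and control arrays fitted alone the adjusted threshold took in S100P and S100A2, among 262 probe sets. Nothing is read from these counts, since the same differences helped to choose the genes.

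The arrays with high S100P also held high levels of other genes. The 5 genes closest to S100P in their pattern were the proteoglycan TSKU, the synaptic fusion protein SNAP25, the fibrinogen chain FGB, the complement component C5 and the epoxide hydrolase EPHX1. Their Pearson r with S100P over the 6 arrays was 0.997, 0.997, 0.996, 0.996 and 0.996, among 969 genes with an SD over arrays of at least 0.3. As many as 195 of the 969 had an r over 0.9, and the 6 arrays share 3 groups. C5 read 6.68 and 6.57 in the controls, 6.84 and 7.89 with the STAT3 siRNA, and 8.81 and 8.17 with PIAS3. As for S100P, STAT3 siRNA replicate 2 lay nearer to the PIAS3 arrays than to replicate 1. The C5 difference from control was 1.86 ± 0.34 with PIAS3, and that of TSKU 1.01 ± 0.21. These follow in part from choosing the genes for their likeness to S100P on the same arrays, so no p-value is given.

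**Figure D3:**
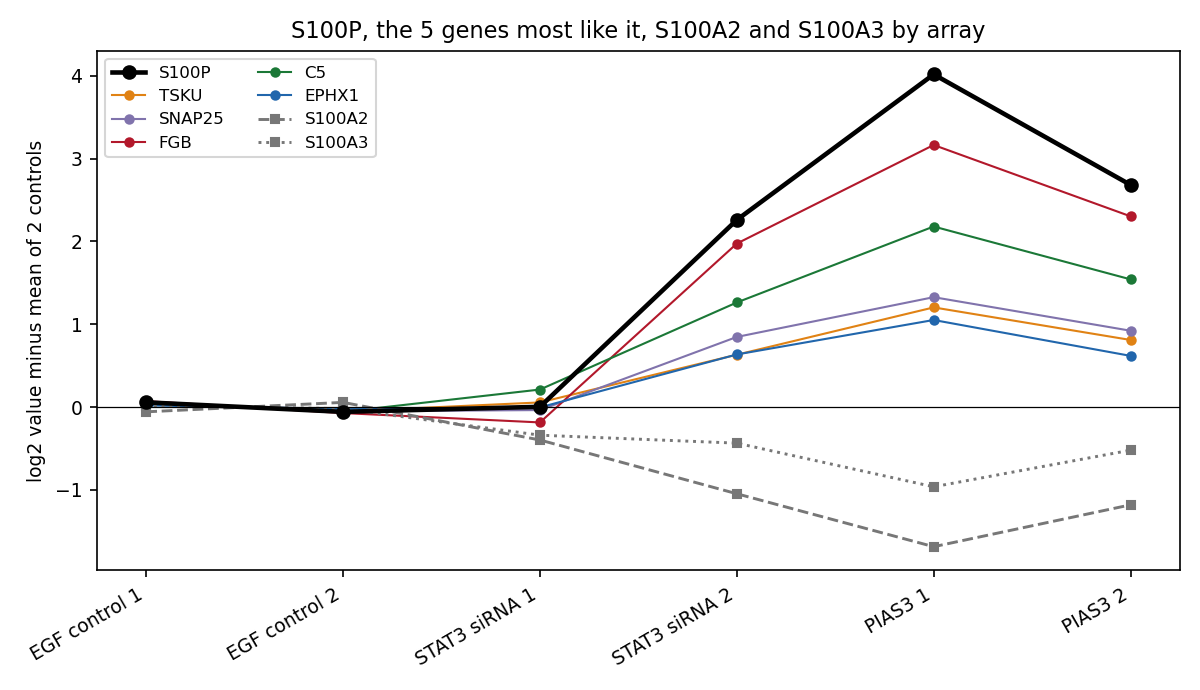
Log2 value minus the mean of the 2 controls (y axis) on each of the 6 arrays (x axis) for S100P (black), the 5 genes with the highest r to it (coloured) and S100A2 and S100A3 (grey, dashed and dotted). The first 6 genes are at or near the control level in STAT3 siRNA replicate 1 and above it in the other 3 transfected arrays, and S100A2 and S100A3 fall below it in all 4.

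The other measured S100 genes, S100A1, S100A5, S100A7, S100A12, S100A14, S100B and S100G, gave differences of at most 0.17 in size with PIAS3. Their median was -0.03 with PIAS3 and -0.04 with the STAT3 siRNA, and 0 of 7 passed in limma at an adjusted or an unadjusted p of 0.05 in any of the 3 comparisons. The smallest p with PIAS3 belonged to S100A14, an epithelial S100 gene, at -0.17 ± 0.12 (adjusted p = 0.588), and to S100G, an intestinal calcium carrier, at 0.14 ± 0.12 (adjusted p = 0.695). Along chromosome 1, S100A2 and S100A3 were neighbours with the furthest differences below 0. Their next measured neighbours stood at -0.20 (S100A4) and -0.17 (S100A14) with PIAS3. S100A7, S100A9 and S100A12, further along the cluster, stood at 0.09, 0.10 and -0.03. The 7 other S100 genes were dim, reading on every array below 5.99, the 40th percentile of level. S100A14 read 4.87 to 5.19. S100A7 (3.90 to 4.07) and S100B (3.35 to 3.60) read at or beside the absent-transcript controls (3.26 to 3.93). In genes this dim a difference may not be measurable, so values near 0 do not show unchanged levels.

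**Figure D4:**
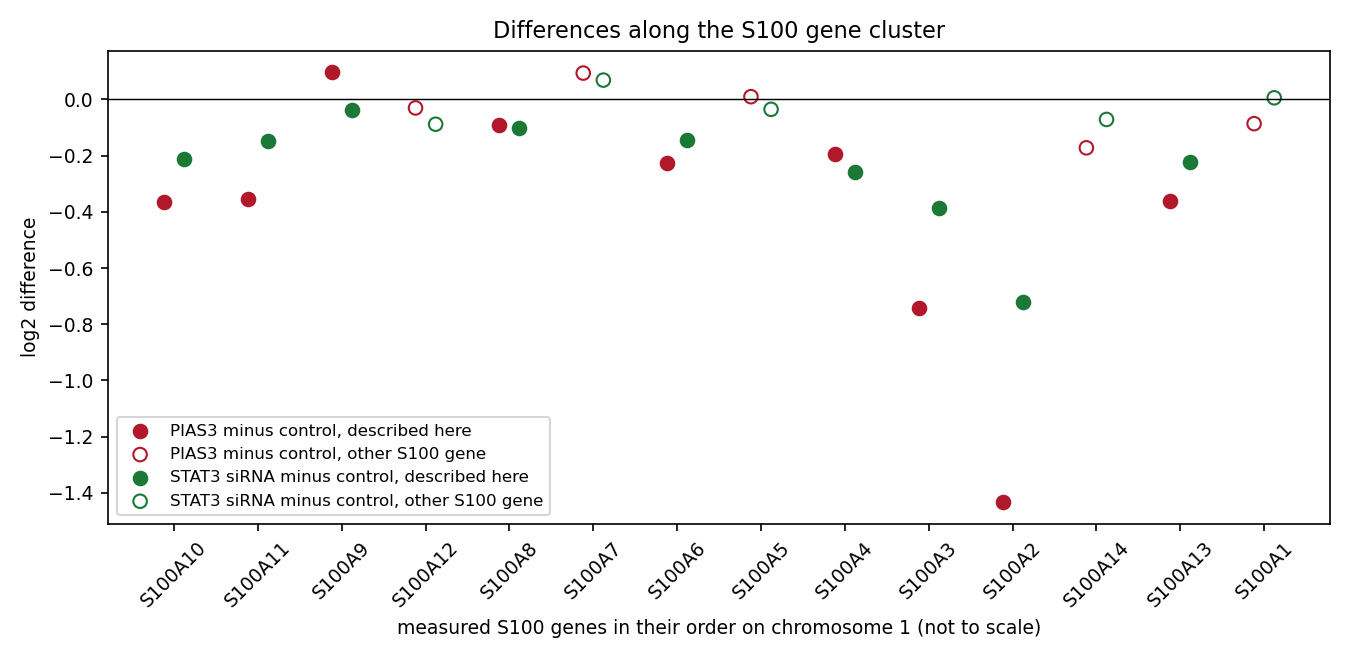
Log2 difference from control (y axis) of the measured S100 genes in their order on chromosome 1 (x axis, not to scale), red for PIAS3 and green for the STAT3 siRNA, filled for the genes described here and open for other S100 genes. S100A3 and S100A2 form the low point, at -0.74 and -1.43 with PIAS3.

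Of 17 measured transcripts for intracellular partners of S100 proteins, 0 passed an adjusted p of 0.05 with PIAS3. At an unadjusted p under 0.05 there were 3, all lower, beside 13.9% of all probe sets. The median was -0.10 and 3 of the 17 lay above 0. The arrays lay apart from the controls for 7 of the 17 (2 higher, 5 lower), beside 45.4% of all probe sets (24.4% lower). MYH9, the heavy chain of non-muscle myosin IIA and target of S100A4, stood at -0.77 ± 0.13 (adjusted p = 0.0793). It read 9.83 and 9.77 in the controls, 9.52 and 9.24 with the STAT3 siRNA, and 9.01 and 9.04 with PIAS3, so all transfected arrays were below both controls. SYT1, a synaptotagmin released together with S100A13 and FGF1, stood at -0.88 ± 0.21 (adjusted p = 0.140). EZR, the ezrin bound by S100P, stood at -0.29 ± 0.12 (adjusted p = 0.333), S100PBP, a nuclear partner of S100P, at -0.23 ± 0.11 (adjusted p = 0.432), and CACYBP at -0.18 ± 0.13 (adjusted p = 0.619). FGF1 and IL1A, the cargo of S100A13, stood at 0.05 ± 0.11 and -0.01 ± 0.24 (adjusted p of 0.895 and 0.991). With the STAT3 siRNA the median of the partners was -0.04 and 0 passed (2 lower at an unadjusted p), beside 4.85% of all probe sets, with SYT1 at -0.88 ± 0.21 (adjusted p = 0.677) and MYH9 at -0.42 ± 0.13 (adjusted p = 0.878). Between PIAS3 and STAT3 siRNA the median was -0.09 and 0 passed (1 lower at an unadjusted p, beside 8.1%).

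Among the 8 receptors of released S100 proteins, 0 passed in any comparison, and 1, MCAM, was lower at an unadjusted p under 0.05 in each. Of all probe sets, 13.9% were under that level with PIAS3, 4.85% with the STAT3 siRNA and 8.1% between PIAS3 and STAT3 siRNA. MCAM, an adhesion molecule that binds S100A8 and S100A9, read 7.44 and 7.27 in the controls, 7.08 and 6.55 with the STAT3 siRNA, and 6.06 and 6.18 with PIAS3. The groups did not overlap, and PIAS3 stood at -1.23 ± 0.18 from control (adjusted p = 0.0762). The receptors best known for S100P, S100A8 and S100A9 stood near control with PIAS3, AGER at 0.10 ± 0.15 and TLR4 at 0.02 ± 0.13 (adjusted p of 0.855 and 0.974). TLR4, however, read about as close to the absent-transcript controls as S100A9, and LY96 and CD36 read below TLR4 on every array. For these receptors a difference may not be measurable, so values near 0 do not show unchanged levels. The medians over the 8 receptors, which include these dim ones, were 0.01 with PIAS3, -0.05 with the STAT3 siRNA and 0.08 between PIAS3 and STAT3 siRNA.

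Related gene groups showed no member past the adjusted threshold in any of the 3 comparisons. Of 11 annexins, 3 were higher and 2 lower with PIAS3 at an unadjusted p under 0.05 and 0 with the STAT3 siRNA (13.9% and 4.85% of all probe sets), with ANXA13 at 1.35 ± 0.28 and ANXA3 at -0.89 ± 0.20 (adjusted p of 0.106 and 0.130). Of 27 other EF-hand genes, 5 were higher and 3 lower with PIAS3 at that level, again beside 13.9%, led by EFHD2, a calcium-binding actin bundler, at -0.49 ± 0.13 and GCA, grancalcin, at 0.59 ± 0.17 (adjusted p of 0.177 and 0.188). Of 3 measured S100-fused genes, TCHH, the hair follicle protein trichohyalin, stood at -0.81 ± 0.12 with PIAS3 and -0.68 ± 0.12 with the STAT3 siRNA (adjusted p of 0.0793 and 0.411). Its PIAS3 values of 3.85 and 3.94 lay at the absent-transcript controls, so the size of the difference is uncertain. The 10 measured genes of the epidermal differentiation complex beside the S100 cluster all lay above 0 with PIAS3 (median 0.17), where 52.1% of all probe sets lay below 0. Of these genes 0 were at an unadjusted p under 0.05, beside 13.9%. Some were dim, such as SPRR1B (3.98 to 4.54) and CRCT1 (4.97 to 5.59), so small differences may not be measurable. Squamous keratinocyte markers, which include IVL and SPRR1B of that complex, had a median of 0.04 with PIAS3 and -0.02 with the STAT3 siRNA, with 0 of 6 at an unadjusted p under 0.05. Fibroblast markers (8) and endothelial markers (6) had medians of -0.04 and 0.02 with PIAS3 and 0 at that level.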

How the data were processed

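The deposited table holds a log2 value for each probe set and array, made by the authors with RMA per the submitters' processing notes. RMA corrects background, normalizes arrays against each other and summarises probes, which compresses changes of dim probe sets. No source used here gives its version, the annotation of the array or a genome build, and scanner files were not used. Of 22277 probe sets, 62 array controls were left out. Gene names came from the supplied platform annotation: 19064 probe sets had 1 symbol, and those with several (1043) or none (2108) stayed unnamed.

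Groups and replicate numbers came from the sample titles. All 22215 probe sets entered 1 fit with limma 3.58.1 (R 4.3.3), which used lmFit and eBayes with a mean per group and had 3 residual and 4.27 prior degrees of freedom. Benjamini-Hochberg adjustment covered all of them in each comparison. The number of arrays limits the precision. The S100 genes and all gene lists were chosen with earlier results of these data known. In each list the rule named up to 4 genes past the threshold or, with none, the 2 with the smallest p, and the report describes those closest to the S100 genes. Partners and receptors set beside an S100 gene, C5 and TSKU among the genes like S100P, and PTPRC and LYZ were named with their values known. The fit was tested on simulated data. Alternatives were 3 normalizations, leaving out probe sets below the 40th percentile of level, trended and robust eBayes, each 2 groups alone, a replicate block, averaged probe sets per gene and the loss of each array in turn. Weighting of arrays was chosen after seeing the data. The weights were equal within each group (1.95 control, 0.86 STAT3 siRNA, 0.60 PIAS3), so they weighed groups by their spread and did not rate single arrays. Figures were drawn with matplotlib 3.10.9.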

Additional observations from a re-analysis of the deposited data

How the results depend on the processing

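The number of probe sets past the adjusted threshold with PIAS3 was 22. It was 39 with cyclic loess, 40 with robust eBayes, 143 with array weights and 262 with the 2 groups alone, and 2 each with quantile normalization again, the filter on dim probe sets and the replicate block. Leaving out arrays gave 0 (without control replicate 1 or 2) to 1232 (without PIAS3 replicate 2). With the STAT3 siRNA, 1 probe set passed, against 0 with quantile normalization or cyclic loess, 3 with the 2 groups alone, 8 with array weights and 0 to 5 with an array left out. Between PIAS3 and STAT3 siRNA 0 passed, and 0 to 544 with an array left out, 544 without PIAS3 replicate 2. The cause of these shifts was not tested. Without either siRNA array the PIAS3 count was the 262 of the 2 groups alone, since a lone siRNA array adds no spread. Without PIAS3 replicate 2 the PIAS3 group is replicate 1 alone, which is assumed to vary like the other groups. S100P, S100A2 and S100A3 were among the probe sets past the threshold there, and S100A2 was with array weights. Replicate numbers were not taken as pairing: deviations of same-numbered arrays correlated at -0.05, -0.06 and 0.09, and 0 S100 genes passed with the block.

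The difference of S100P with PIAS3 stayed between 2.68 and 4.02 over its alternatives and that of S100A2 between -1.69 and -1.18. Of 102 alternative values of the 10 genes per comparison, 1 changed sign with PIAS3 (S100A8, to 0.12 without PIAS3 replicate 1), 3 with the STAT3 siRNA (S100A9 and S100A13) and 8 between PIAS3 and STAT3 siRNA (S100A4, S100A6 and S100A8). The 102 include the replicate block and the loss of an array outside the comparison. In this balanced design those settings cannot change a difference, so the counts overstate how stable the differences are.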
